A study of Mus musculus with 8 samples.

Results

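Nuclear genes encode most subunits of the mitochondrial respiratory chain and of ATP synthase, and their transcripts were followed here in inguinal white fat (iWAT, a subcutaneous depot at the groin) from male mice given a high-fat diet (HFD). The genes were taken by name from all protein-coding genes: Ndufa, Ndufb, Ndufc, Ndufs and Ndufv genes for complex I, Sdha to Sdhd for complex II, Uqcr genes and Cyc1 for complex III, Cox4 to Cox8 genes for complex IV and Atp5 genes for complex V. Cox7a1 and Cox8b were left out, and a mean of at least 0.5 FPKM over the 8 libraries was asked for. FPKM, the authors' deposited unit, divides fragments by gene length and by a library size, so levels of different genes can be set side by side. The names found 83 of the 54532 genes measured, and 80 reached the minimum level, as did 16012 genes in all. Complex I had 35 of 35 genes, complex II 4 of 4, complex III 9 of 9, complex IV 15 of 17 and complex V 17 of 18. Ndufa4, which carries a complex I name, was counted with complex IV, where it is now placed. The other 3 genes, Cox7b2, Cox8c and a second entry named Atp5o, were listed at 0 in all 8 libraries. The lowest genes inside the minimum were Ndufb2, Cox6b2 and Atp5s, at means of 1.67, 2.25 and 5.18 FPKM. The lowest WT mean among the 80 was 0.744 FPKM, so no subunit reached the minimum through the KLF10AKO group alone.

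The 8 libraries were 4 of wild type mice (WT) and 4 of mice whose adipocytes lack KLF10 (KLF10AKO), all male and all HFD-fed. KLF10 is a zinc-finger transcription factor, and the study asked what its loss in adipocytes does to the metabolism of the fat pad. Other cells of the pad are expected to keep the gene, and the sources used here do not give the Cre driver, the strain or the age of the animals. Klf10 itself averaged 18.2 ± 2.09 FPKM over the WT libraries and 9.60 ± 0.157 over the KLF10AKO libraries (SD, n = 4 each). Which animal gave which library is not stated, and the p-values therefore reflect library-to-library spread, which may be partly technical.

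The respiratory chain sits in the inner mitochondrial membrane. Complexes I and II take electrons from NADH and succinate, complex III passes them to cytochrome c, complex IV hands them to oxygen, and complex V, the ATP synthase, uses the proton gradient built by complexes I, III and IV to make ATP. White adipocytes draw on this machinery for the ATP that lipid storage and adipokine synthesis use, and muscle and brown fat, which hold far more mitochondria, carry some subunits as tissue-restricted isoforms.

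Several marker lists moved with the groups, and 3 KLF10AKO libraries stood apart from the fourth. All 12 adipocyte markers were lower in KLF10AKO, by a median of 3.32-fold, and their summed level was 9569 to 10498 FPKM in WT and 3592 to 4288 in KLF10AKO. All 10 B cell and all 10 T cell markers were higher in KLF10AKO, with B cell sums of 2.93 to 4.43 FPKM in WT and 1161 to 1724 in KLF10AKO and T cell sums of 4.32 to 7.72 and 454 to 698. These lymphocyte genes were high in all 4 KLF10AKO libraries. Skeletal muscle markers summed to 194 to 243 FPKM in WT, to 6287, 4767 and 11115 in KLF10AKO replicates 1 to 3 and to 39.9 in replicate 4, and none of the 12 was at 0 throughout a group. The WT sum was mostly Acta1 (160 to 213 FPKM) and Myl1 (24.3 to 29.6), which stood at 20.9 and 4.81 in KLF10AKO replicate 4. Other markers were higher there than in WT, such as Mylpf (7.68, WT mean 1.06) and Tnnt3 (3.11, WT mean 0.427). A lower sum in replicate 4 is thus not less of every muscle transcript than in WT. Of 8 endothelial markers 7 were lower in KLF10AKO, by a median of 1.73-fold over the list, and of 10 macrophage markers 7, by a median of 1.36-fold, while 8 of each list were higher once libraries were scaled to the adipocyte markers. Their sums were 316 to 322 FPKM in WT and 170.3 to 180.2 in KLF10AKO for endothelium and 363 to 419 and 264 to 323 for macrophages. Brown and beige adipocyte markers summed to 131 to 207 FPKM in WT and to 33.5 to 186 in KLF10AKO, with replicate 4 lowest. Most of that sum was Cox8b and Cox7a1, which muscle carries as well. Cidea and Kcnk3 varied little among the KLF10AKO libraries, at 4.12 to 5.21 and 3.90 to 4.91 FPKM. Of the 10 brown and beige markers, 6 reached the minimum level, where Cidea and Kcnk3 fell by 2.02 (limma adjusted p = 6.87e-07) and 1.76 (limma adjusted p = 1.23e-07) and 4 did not pass. Scaled to the adipocyte markers 2 of the 6 were lower and 3 higher. Ucp1, which defines these cells, was under the minimum at a mean of 0.430 FPKM. Placental trophoblast markers summed to 14.8 to 43.1 FPKM in WT, while 6 of the 8, among them Prl3b1 and Tpbpa, were at 0 in all KLF10AKO libraries, Prl3d1 in all WT libraries as well. All animals were male, and the sources used here do not say how placental transcripts came into the WT libraries. Mitochondrially encoded transcripts took 2.91% of the reads in WT replicate 2, against 5.24% to 5.60% in the other WT libraries and 2.82% to 3.57% in KLF10AKO. The part of these cell types and libraries in the changes below was not tested, except where a value is given without the libraries concerned. In bulk tissue, fewer cells of a type and less RNA per cell cannot be told apart.

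Promoter sequences are shown for 5 subunits, picked as examples, which do not stand for the range of the results. Cox6a1 and Sdha are subunits that fell, Atp5g3 fell beside its isoform Atp5g2, which rose, and Cox7a2l rose. The sequences are the 250 bases before the RefSeq start site on build GRCm38.p6, written 5′ to 3′ on the gene's strand, which was minus for each of the 5. They lie at chr5:115348959-115349208 for Cox6a1, chr13:74350241-74350490 for Sdha, chr2:73911327-73911576 for Atp5g3, chr15:102671048-102671297 for Atp5g2 and chr17:83514334-83514583 for Cox7a2l. Capitals mark matches, on either strand, to 3 motifs of factors known for binding promoters of respiratory genes: GCGCANGCG of NRF1, CCGGAAG of ETS factors such as GABPA, and AAGATGGCG of YY1.
Cox6a1: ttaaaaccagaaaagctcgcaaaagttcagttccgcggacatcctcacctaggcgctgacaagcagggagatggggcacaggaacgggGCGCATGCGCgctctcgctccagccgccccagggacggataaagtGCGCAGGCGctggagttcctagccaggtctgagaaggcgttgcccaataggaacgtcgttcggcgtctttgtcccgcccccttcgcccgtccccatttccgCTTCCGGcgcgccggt
Sdha: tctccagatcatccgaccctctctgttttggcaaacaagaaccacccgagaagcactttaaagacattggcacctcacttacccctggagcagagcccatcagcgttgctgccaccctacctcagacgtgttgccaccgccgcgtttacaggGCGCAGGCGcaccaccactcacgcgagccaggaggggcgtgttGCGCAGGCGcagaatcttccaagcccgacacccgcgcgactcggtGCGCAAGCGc
Atp5g3: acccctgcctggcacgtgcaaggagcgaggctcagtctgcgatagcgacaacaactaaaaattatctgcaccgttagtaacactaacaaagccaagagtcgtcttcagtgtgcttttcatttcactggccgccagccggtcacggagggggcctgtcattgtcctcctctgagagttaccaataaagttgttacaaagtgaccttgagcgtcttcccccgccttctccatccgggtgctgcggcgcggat
Atp5g2: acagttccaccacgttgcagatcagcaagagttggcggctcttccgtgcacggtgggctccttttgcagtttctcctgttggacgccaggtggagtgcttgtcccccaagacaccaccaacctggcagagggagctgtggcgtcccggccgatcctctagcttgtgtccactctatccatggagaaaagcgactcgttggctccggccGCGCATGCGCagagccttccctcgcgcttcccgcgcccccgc
Cox7a2l: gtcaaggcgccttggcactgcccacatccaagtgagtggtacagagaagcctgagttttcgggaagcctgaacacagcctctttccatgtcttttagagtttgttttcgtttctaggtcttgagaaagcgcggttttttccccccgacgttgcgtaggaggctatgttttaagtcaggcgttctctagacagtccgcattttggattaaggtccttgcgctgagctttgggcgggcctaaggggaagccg
Cox6a1 held 2 NRF1 matches and 1 ETS match, Sdha 3 NRF1 matches and Atp5g2 1 NRF1 match, and the stretches of Atp5g3 and Cox7a2l held no match to these letters, though the window of Atp5g3 that runs on past the start holds 1 NRF1 match and is counted with it below.

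Windows of 300 bases, from 250 before to 50 after the start, were available from RefSeq for 65 of the 80 subunits, some with several start sites, giving 70 windows. The NRF1 letters were in 30.0% of these windows and in 6.25% of all 32851 windows, the ETS letters in 22.9% and 8.86%, and the YY1 letters in 10.0% and 1.40%. Overlapping matches of one motif were counted as 1. The subunit windows were also richer in G and C, at a median of 58.0% against 52.7%. No window held overlapping matches of different motifs. Of 20 subunits with an NRF1 match 16 fell and 1 rose, of 16 with an ETS match 14 fell, of 7 with a YY1 match 5 fell, and of 30 with no match to any of the 3 motifs 21 fell and 2 rose, on the authors' scaling used below. These are shares of 80%, 87.5%, 71.4% and 70% that fell, beside 75.4% of all 65 matched subunits (49) and 34.9% of all genes tested. These counts describe letters in a window, and the difference between them was not tested. The windows of Atp5b, Ndufb3 and Uqcrfs1, the largest falls of complexes V, I and III, held none of the 3 motifs. Promoters of the others, among them Atp5a1, Atp5mpl, Cox4i1, Cox4i2, Cox6a2, Cox6c, Cyc1, Ndufa2, Ndufb9, Ndufs1, Sdhc, Uqcrb, Uqcrc2 and Uqcrq, were not used here.

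In KLF10AKO iWAT the transcripts of most respiratory chain subunits were scarcer, relative to other transcripts, than in WT iWAT. On the authors' scaling 61 of the 80 fell, where 34.9% of all 16012 genes did, and 4 rose (Cox6a2, Cox7a2l, Atp5g1 and Atp5g2), where 39.4% of all genes did and 74.3% changed in either direction. The other 15 did not pass. Abundant genes fell more often in general: in the level classes of 20 FPKM or more, 47.9% to 60.6% of protein-coding genes fell. A change was called at an adjusted p under 0.05 in limma, a linear model with a spread shared across genes, fitted to log2(FPKM + 0.5) of all genes tested. The median log2 change was -0.58 over the subunits, a 1.49-fold fall, and 0.05 over all genes. The groups did not overlap in 55 subunits, since all 4 KLF10AKO values lay below all 4 WT values in 52, where 33.0% of all genes did so, and above them in 3, where 36.2% did. The summed level of the 80 averaged 9811 ± 772 FPKM over the WT libraries and 6015 ± 723 over the KLF10AKO libraries (SD, n = 4 each), a ratio of 1.63. In the GENCODE M21 annotation 28 of the 80 share exonic bases with another gene, at most 47.9% of them (Atp5o), and the sources used here do not give the strand setting of the counting. Pseudogene entries exist for 8 of the 80, the highest at a mean of 5.55 FPKM, for Ndufb4.

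These directions are relative to the other transcripts of the library and hold only for some scalings. The library size implied by the deposited FPKM differed from the read total. Reads recovered from FPKM and gene length were 1.05 to 1.09 times that size in WT and 0.90 to 0.94 times in KLF10AKO. TPM and voom used totals of each library instead. With each library scaled to the mean of the 12 adipocyte markers, all 80 subunits were higher in KLF10AKO, as were 86.9% of all genes, while 1.26% of all genes were lower. On that scale the median log2 change was 1.03 over the subunits and 1.44 over all genes. With TPM 43 subunits were lower (25.4% of all genes) and 5 higher (44.0%), and with quantile normalization 57 were lower (44.1%) and 4 higher (30.9%). In each of these scalings, and in voom on recovered reads, the median of the subunits lay below that of all genes: -0.37 against 0.25 with TPM, -0.47 against -0.16 with quantile normalization and -0.35 against 0.27 with voom. TPM, voom and the marker scaling divide each library by a single number. Apart from the added constant this shifts both medians alike, so these settings are no separate support. With quantile normalization, which can change the gap, the gap was narrower than on the authors' scaling. The words "fell" and "rose" below refer to the authors' scaling.

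With KLF10AKO represented by replicate 4 alone, 55 subunits were lower, where 29.7% of all genes were, 1 was higher, where 32.4% were, and the median log2 change was -0.85. The median fall was thus larger in the library at 39.9 FPKM of muscle markers than over all 4. Among the KLF10AKO libraries, replicate 3, which had the highest muscle sum, was highest for 73 of the 80 subunits, and replicate 4 was lowest for 75. Among the WT libraries, replicate 4 was lowest for 52 and replicate 3 was highest for 39 and replicate 2 for 37. The mean log2 level of the 80 relative to the WT mean was -0.45, -0.45, -0.26 and -0.75 in KLF10AKO replicates 1 to 4, and that of the adipocyte markers was -1.56, -1.64, -1.40 and -1.81. In both, replicate 3 was the highest and replicate 4 the lowest.

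**Figure D1:**
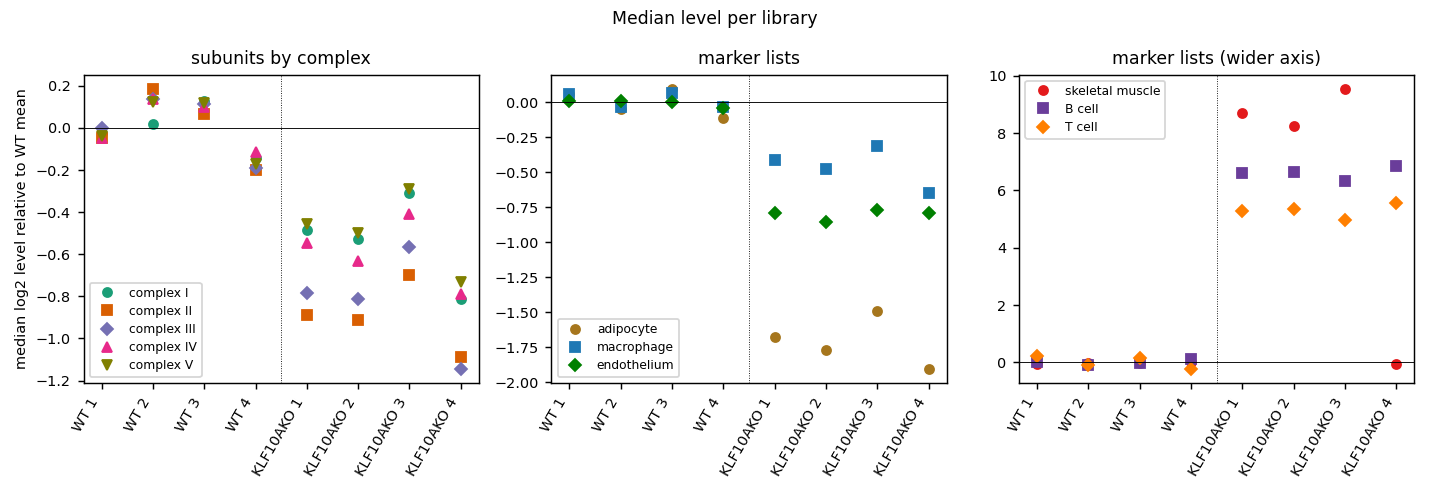
Median log2 level relative to the WT mean in each of the 8 libraries, for the subunits of each complex (left), for adipocyte, macrophage and endothelial markers (middle) and, on a wider axis, for skeletal muscle, B cell and T cell markers (right). On the authors' scaling the 4 KLF10AKO libraries lie below the 4 WT libraries for every complex, with replicate 4 lowest, while muscle markers are high in replicates 1 to 3 alone; scaled to adipocyte markers, all subunits were higher in KLF10AKO.

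Complex II, which oxidises succinate for both the citric acid cycle and the chain, fell in all 4 of its subunits, by a median log2 of 0.91, although all 4 were higher when scaled to adipocyte markers. Its members are the flavoprotein Sdha, the iron-sulphur subunit Sdhb and the membrane anchors Sdhc and Sdhd. Sdha (ENSMUSG00000021577, mm10 chromosome 13, 74322254 to 74350280, minus strand) had levels of 147, 159, 158 and 139.7 FPKM in the WT libraries, replicates 1 to 4, and 76.5, 74.3, 85.7 and 64.9 in the KLF10AKO libraries. The KLF10AKO values all lay below the WT values, and Sdha fell by 1.00 on the log2 scale (95% interval -1.21 to -0.80, SE 0.0908, limma adjusted p = 1.02e-05). Sdhb stood at 76.1, 100.4, 78.7 and 66.0 in WT and 45.3, 44.3, 50.3 and 40.3 in KLF10AKO, and fell by 0.81 (limma adjusted p = 0.000314). Sdhc stood at 59.7, 79.2, 67.4 and 53.9 in WT and 32.4, 32.1, 38.2 and 24.7 in KLF10AKO, and fell by 1.02 (limma adjusted p = 0.000243). Sdhd, with the smallest change of the 4, stood at 118, 126, 129 and 108 in WT and 75.6, 77.9, 87.5 and 73.2 in KLF10AKO, and fell by 0.61 (limma adjusted p = 0.000113). No subunit of complex II had overlapping groups, and 33.0% of all genes likewise lay wholly below WT. The sum of the 4 subunits was 417 ± 41.6 FPKM over the WT libraries and 231 ± 24.0 over the KLF10AKO libraries (SD, n = 4 each), a ratio of 1.81. Replicate 4 was the lowest of the KLF10AKO libraries for each of the 4, at -1.09 for their median log2 level.

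Complex I, the NADH dehydrogenase and the largest of the complexes, fell in 27 of 35 subunits and rose in none, with a median log2 change of -0.55, and all 35 were higher when scaled to adipocyte markers. With TPM 14 of the 35 were lower and 1, Ndufb2, was higher. By position, 5 of the 7 core subunits of the matrix arm, 5 of 9 accessory subunits of that arm and 17 of 19 accessory subunits of the membrane arm fell. In 21 of the 35 all KLF10AKO values lay below all WT values, where 33.0% of all genes did so. In none did they lie above, where 36.2% of all genes did. The summed level was 2661 ± 228 FPKM over the WT libraries and 1787 ± 235 over the KLF10AKO libraries (SD, n = 4 each), a ratio of 1.49.

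The 7 nuclear core subunits carry the flavin and the iron-sulphur clusters that lead electrons from NADH to ubiquinone, and 5 of them fell while Ndufv2 and Ndufs7 did not pass. Ndufv1, which holds the flavin and the NADH site, had levels of 82.8, 94.3, 89.7 and 77.8 FPKM in the WT libraries, replicates 1 to 4, and 43.2, 44.8, 49.5 and 36.4 in the KLF10AKO libraries. Both groups were tight and did not overlap, and Ndufv1 fell by 0.98 (95% interval -1.21 to -0.75, SE 0.101, limma adjusted p = 2.37e-05). Ndufv2, its partner in the same module, stood at 49.3, 48.8, 56.4 and 42.7 in WT and 41.8, 42.0, 48.2 and 32.3 in KLF10AKO, with overlapping groups and a log2 change of -0.27 (limma adjusted p = 0.0843) that did not pass but did without KLF10AKO replicate 3 (-0.35, limma adjusted p = 0.0318) and with KLF10AKO replicate 4 alone (-0.60, limma adjusted p = 0.0294). Ndufs1, the large iron-sulphur subunit of this module, stood at 15.7, 17.2, 16.9 and 14.7 in WT and 10.3, 10.2, 10.9 and 9.31 in KLF10AKO and fell by 0.64 (limma adjusted p = 4.11e-05). In the module that reduces ubiquinone, Ndufs3 fell by 0.55 (limma adjusted p = 0.00310) and Ndufs8 by 0.32 (limma adjusted p = 0.0141). Both calls were lost with TPM (limma adjusted p = 0.0660 and 0.335), and that of Ndufs8 also with quantile normalization (0.0931), with voom (0.320) and with KLF10AKO replicate 4 alone (0.155). Ndufs7, which holds the last cluster before ubiquinone, stood at 57.2, 68.7, 62.7 and 51.6 in WT and 57.9, 59.3, 69.6 and 45.7 in KLF10AKO. Its groups overlapped almost wholly, and the log2 change was -0.05 (95% interval -0.36 to 0.25, SE 0.133, limma adjusted p = 0.730).

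Among the 28 accessory subunits, which surround the core and are needed for assembly and stability, Ndufb3 of the membrane arm had the largest fall. Ndufb3 (ENSMUSG00000026032, mm10 chromosome 1, 58586384 to 58595964, plus strand) had levels of 165, 231, 183 and 171 FPKM in the WT libraries, replicates 1 to 4, and 87.5, 79.4, 90.0 and 78.1 in the KLF10AKO libraries. The groups did not overlap, and Ndufb3 fell by 1.15 (95% interval -1.40 to -0.90, SE 0.110, limma adjusted p = 1.48e-05). Ndufa2, the complex I subunit with the highest WT level, stood at 242 ± 42.0 FPKM over the WT libraries and 163 ± 20.1 over the KLF10AKO libraries (SD, n = 4 each) and fell by 0.56 (limma adjusted p = 0.00486), a call lost with TPM (0.0903) and with KLF10AKO replicate 4 alone (0.0509). The accessory subunits nearest to no change were Ndufa6, Ndufa3 and Ndufb2, at log2 changes of -0.10, -0.08 and 0.12, none of which passed, although Ndufb2 was called higher with TPM (0.33) and voom (0.38). Ndufb2 was also the least abundant subunit of the complex, at 1.57 ± 0.139 FPKM over the WT libraries and 1.76 ± 0.147 over the KLF10AKO libraries (SD, n = 4 each). Ndufa12, singled out after its values were seen, was scattered within both groups, at 21.5, 11.6, 40.4 and 14.8 in WT and 24.7, 25.1, 14.9 and 7.30 in KLF10AKO. Its highest value was 3.49 times the lowest in WT and 3.44 times in KLF10AKO, the widest among the 80 after Cox6a2, so its log2 change of -0.28 had an interval of -1.33 to 0.78. Ndufs6 and Ndufa5 also did not pass, at -0.31 and -0.27 (Ndufs6 passed at -0.39 without KLF10AKO replicate 3 and at -0.66 with KLF10AKO replicate 4 alone), and the other accessory subunits fell by 0.24 (Ndufb10) to 0.93 (Ndufb9).

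**Figure D2:**
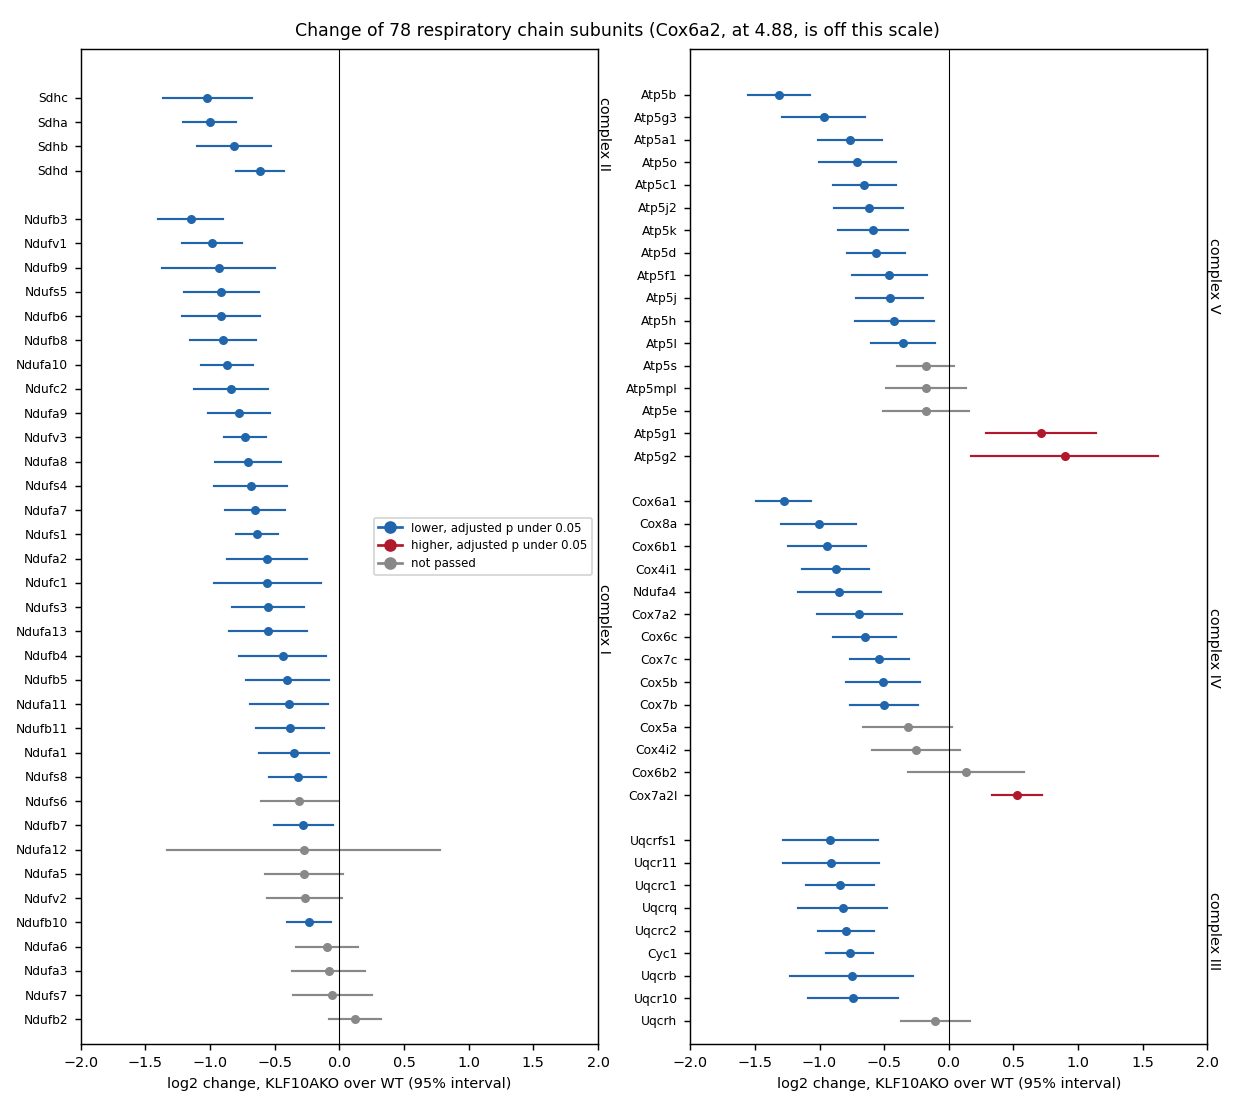
Log2 change (KLF10AKO over WT, authors' scaling) with its 95% interval for 78 of the 80 subunits, by complex, coloured by whether limma called the gene lower, higher or neither; Cox6a2, at 4.88, lies off the scale. Complex II lies wholly below 0 and complex III does so but for Uqcrh, whose interval spans 0, whereas 3 subunits shown in complexes IV and V lie above 0 with intervals that exclude it; scaled to adipocyte markers, all 80 were higher.

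Complex III, which takes electrons from ubiquinol to cytochrome c, fell in 8 of 9 subunits, by a median log2 of 0.80 over the 9, and all 9 were higher when scaled to adipocyte markers. The redox subunits fell: Cyc1, cytochrome c1, by 0.77 (limma adjusted p = 2.7e-05), and Uqcrfs1, the Rieske iron-sulphur protein, by 0.91. Uqcrfs1 (ENSMUSG00000038462, mm10 chromosome 13, 30540308 to 30545362, minus strand) had levels of 167, 225, 184 and 144 FPKM in the WT libraries, replicates 1 to 4, and 101, 89.1, 115 and 76.1 in the KLF10AKO libraries. The groups did not overlap (95% interval -1.28 to -0.55, SE 0.160, limma adjusted p = 0.000711), and WT replicate 2 was the highest library. Uqcr10, a small subunit with the highest WT level of the complex, stood at 207, 254, 241 and 208 in WT and 136, 139.9, 173 and 102 in KLF10AKO and fell by 0.74 (limma adjusted p = 0.00188). The exception was Uqcrh, the acidic hinge protein between cytochrome c1 and cytochrome c, at 111, 152, 148 and 112 in WT and 119.5, 125, 124 and 112 in KLF10AKO. Its groups overlapped, and the log2 change was -0.10 (95% interval -0.37 to 0.16, SE 0.118, limma adjusted p = 0.444). The 9 subunits summed to 1250 ± 119 FPKM over the WT libraries and 755 ± 120 over the KLF10AKO libraries (SD, n = 4 each), a ratio of 1.66.

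Complex IV, cytochrome c oxidase, held the most abundant subunits and the gene that changed most. Of its 15 subunits 10 fell, 2 rose (Cox6a2 and Cox7a2l) and 3 did not pass, with a median log2 change of -0.54, and all 15 were higher when scaled to adipocyte markers. The 10 falls were all among the 12 subunits of ubiquitous type. The summed level was 3513 ± 228 FPKM over the WT libraries and 2010 ± 204 over the KLF10AKO libraries (SD, n = 4 each), a ratio of 1.75. Cox8a, a small structural subunit and the highest of all 80 in WT, had levels of 953, 713, 1061 and 895 FPKM in the WT libraries, replicates 1 to 4, and 437, 445, 483 and 421 in the KLF10AKO libraries. It fell by 1.01 (95% interval -1.30 to -0.72, SE 0.127, limma adjusted p = 9.03e-05), with no overlap, and WT replicate 2 was the lowest WT library. Cox5a, one of the nuclear subunits on the matrix side, stood at 37.1, 42.9, 45.3 and 31.7 in WT and 32.3, 31.6, 37.7 and 24.2 in KLF10AKO, with a log2 change of -0.32 that did not pass (limma adjusted p = 0.0828) but did at -0.41 without KLF10AKO replicate 3 and at -0.42 without WT replicate 4. Cox7b, a membrane subunit, fell by 0.50 (limma adjusted p = 0.00366), a call lost with TPM (0.0566), and Ndufa4 by 0.85 (limma adjusted p = 0.000531).

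Subunit 6a exists in a ubiquitous form, Cox6a1, and a heart and skeletal muscle form, Cox6a2, and the 2 genes went opposite ways. Cox6a1 (ENSMUSG00000041697, mm10 chromosome 5, 115345642 to 115348981, minus strand) had levels of 775, 937, 842 and 763 FPKM in the WT libraries, replicates 1 to 4, and 335, 353, 361 and 317 in the KLF10AKO libraries. The groups were tight and did not overlap, and Cox6a1 fell by 1.28 (95% interval -1.49 to -1.06, SE 0.0941, limma adjusted p = 2.82e-06). Cox6a2 (ENSMUSG00000030785, mm10 chromosome 7, 128205435 to 128206387, minus strand) had levels of 0.197, 0.796, 0.882 and 1.10 FPKM in the WT libraries, replicates 1 to 4, and 68.8, 58.0, 125 and 2.42 in the KLF10AKO libraries. The first 3 KLF10AKO libraries were far above WT and the fourth was nearer to it, though above every WT value. Cox6a2 rose by 4.88 (95% interval 2.52 to 7.23, SE 1.04, limma adjusted p = 0.00226). With KLF10AKO replicate 4 alone its log2 change was 1.29 and did not pass (limma adjusted p = 0.0826), and it did not pass in voom either, where the log2 change was 5.87 (limma adjusted p = 0.132). Cox6a2 made up 17.0%, 14.1%, 25.8% and 0.757% of the summed Cox6a1 and Cox6a2 level in KLF10AKO replicates 1 to 4, and 0.0898% ± 0.0495 in WT (SD, n = 4). The order of the 4 libraries was that of the skeletal muscle sum given above. In the reference annotation 10.3% of the exonic bases of Cox6a2 are shared with its neighbour Itgad.

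The family of subunit 7a was split as well. Cox7a2, the ubiquitous form, stood at 155, 105, 169 and 146 in WT and 85.5, 89.3, 97.6 and 77.9 in KLF10AKO FPKM and fell by 0.69 (limma adjusted p = 0.00200), with WT replicate 2 well under the other WT libraries. That call was lost with KLF10AKO replicate 4 alone (limma adjusted p = 0.0561). Cox7a2l (ENSMUSG00000024248, mm10 chromosome 17, 83501919 to 83514333, minus strand) had levels of 119, 142, 130.1 and 113 FPKM in the WT libraries, replicates 1 to 4, and 175, 185, 174 and 193 in the KLF10AKO libraries. Its protein is known for a role in supercomplexes of complexes III and IV, which were not measured here. All KLF10AKO values lay above all WT values, and replicate 4 was the highest library. Cox7a2l rose by 0.53 (95% interval 0.34 to 0.72, SE 0.0838, limma adjusted p = 0.000388), and by 0.61 with KLF10AKO replicate 4 alone. Among the KLF10AKO libraries, replicate 4 had the lowest muscle sum (39.9 FPKM) and the highest B cell (1724) and T cell (698) sums. The order of Cox7a2l across the KLF10AKO libraries was that of their B cell and T cell sums. The part of either tissue in the change of Cox7a2l was not tested. Cox7a1, the muscle and brown fat form, lies outside the rule; it stood at 15.3, 16.0, 11.7 and 14.5 in WT and 34.1, 24.3, 62.6 and 3.92 in KLF10AKO and did not pass (log2 change 0.58, limma adjusted p = 0.464). With KLF10AKO replicate 4 alone its log2 change turned to -1.74, and without that library it was 1.36 and passed (limma adjusted p = 0.00254). Cox8b, the muscle and brown fat partner of Cox8a and likewise outside the rule, stood at 119, 84.9, 153 and 80.8 in WT and 66.1, 63.7, 111 and 19.4 in KLF10AKO and did not pass either (log2 change -0.94, limma adjusted p = 0.103), though it did without KLF10AKO replicate 3 (-1.27, limma adjusted p = 0.0303) and with KLF10AKO replicate 4 alone (-2.42, limma adjusted p = 0.00797).

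In the other isoform pairs of complex IV the ubiquitous form fell and the tissue-restricted form did not pass. Cox4i1, the ubiquitous form of subunit 4, stood at 447, 552, 495 and 411 in WT and 258, 260.1, 289 and 228 in KLF10AKO FPKM and fell by 0.88 (95% interval -1.13 to -0.62, SE 0.113, limma adjusted p = 0.000104). Cox4i2, the form known from lung and from low oxygen, stood at 7.56, 10.2, 6.34 and 7.60 in WT and 6.02, 7.62, 5.39 and 7.12 in KLF10AKO, with overlapping groups and a log2 change of -0.25 (limma adjusted p = 0.154), but it was called lower with quantile normalization (-0.45, limma adjusted p = 0.0203). Its share of the pair averaged 1.64% ± 0.261 over WT libraries and 2.50% ± 0.545 over KLF10AKO libraries (SD, n = 4 each), and the lowest KLF10AKO share, 1.83%, was just above the highest WT share, 1.82%. Cox6b1, the ubiquitous form of subunit 6b, stood at 340.2, 437, 363 and 302 in WT and 187, 186, 218 and 158 in KLF10AKO and fell by 0.94 (limma adjusted p = 0.000191). Cox6b2, the testis form, was low throughout, at 2.13 ± 0.605 FPKM over the WT libraries and 2.36 ± 0.550 over the KLF10AKO libraries (SD, n = 4 each), and did not pass (log2 change 0.13, limma adjusted p = 0.567).

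**Figure D3:**
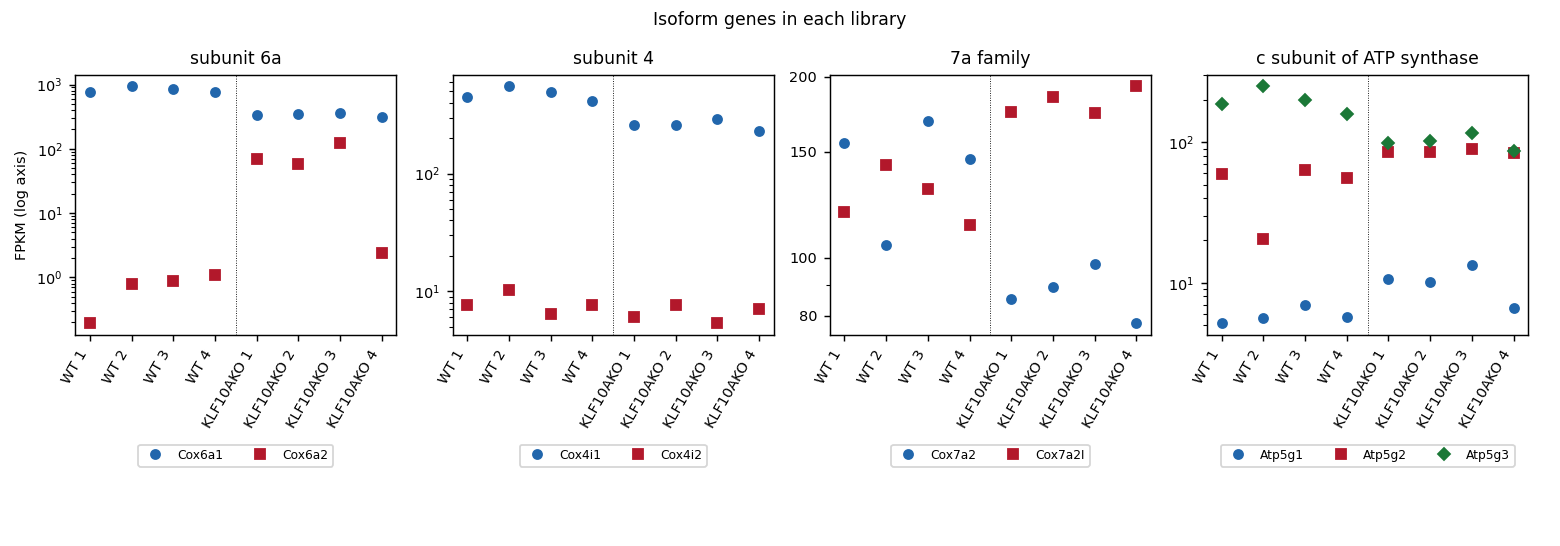
FPKM (log axes) of isoform genes in each of the 8 libraries for subunits 6a and 4 and the 7a family of complex IV and for the c subunit of complex V. Cox6a2 lies at 58.0 to 125 in KLF10AKO replicates 1 to 3 and at 2.42 in replicate 4, whereas Cox7a2l and Atp5g2 lie above every WT library in all 4 KLF10AKO libraries.

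Complex V, the ATP synthase, fell in 12 of 17 subunits, rose in 2 and did not pass in 3, with a median log2 change of -0.46, and all 17 were higher when scaled to adipocyte markers. In the catalytic F1 head and central stalk 4 of 5 fell, in the peripheral stalk all 4, in the c-ring 1 of 3, and among the other membrane subunits and factor B 3 of 5. The summed level was 1971 ± 186 FPKM over the WT libraries and 1232 ± 142 over the KLF10AKO libraries (SD, n = 4 each), a ratio of 1.60. Atp5b, the catalytic beta subunit and the highest of the complex in WT, had the largest fall of the 80. Atp5b (ENSMUSG00000025393, mm10 chromosome 10, 128083273 to 128090391, plus strand) had levels of 486, 544, 516 and 457 FPKM in the WT libraries, replicates 1 to 4, and 207, 197, 233 and 171 in the KLF10AKO libraries. The groups were far apart, and Atp5b fell by 1.31 (95% interval -1.56 to -1.07, SE 0.106, limma adjusted p = 5.05e-06), a 2.49-fold change. Its partner Atp5a1, the alpha subunit, stood at 303, 353, 313 and 279.8 in WT and 186, 175, 215 and 159 in KLF10AKO and fell by 0.77 (limma adjusted p = 0.000194).

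The subunits of the central stalk had log2 changes nearer to 0, a difference that was not tested. Atp5c1, the gamma subunit that turns in the head, fell by 0.65 (limma adjusted p = 0.000465) and Atp5d, the delta subunit, by 0.56 (limma adjusted p = 0.000759). Atp5e, the epsilon subunit, stood at 97.4, 129, 99.0 and 86.6 in WT and 90.0, 86.2, 112 and 76.7 in KLF10AKO, with overlapping groups and a log2 change of -0.17 (limma adjusted p = 0.302). The 4 genes of the peripheral stalk, which holds the head against rotation, fell by 0.42 (Atp5h) to 0.71 (Atp5o). Atp5mpl and Atp5s, a small membrane subunit and coupling factor B, did not pass, at -0.18 and -0.18, though Atp5s passed without KLF10AKO replicate 3 (-0.25, limma adjusted p = 0.0242) and with quantile normalization (-0.41, limma adjusted p = 0.00438).

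The c subunit, whose ring turns as protons pass, is made from 3 genes that encode the same mature protein with different import sequences, and the mixture of the 3 shifted. Atp5g3 (ENSMUSG00000018770, mm10 chromosome 2, 73908447 to 73911326, minus strand) had levels of 187, 249.7, 201 and 159 FPKM in the WT libraries, replicates 1 to 4, and 99.4, 102, 116 and 86.4 in the KLF10AKO libraries and fell by 0.97 (95% interval -1.29 to -0.64, SE 0.142, limma adjusted p = 0.000232). Atp5g2 (ENSMUSG00000062683, mm10 chromosome 15, 102662864 to 102672352, minus strand) had levels of 59.4, 20.6, 63.7 and 55.8 FPKM in the WT libraries, replicates 1 to 4, and 84.6, 85.6, 89.0 and 83.5 in the KLF10AKO libraries. It was tight in KLF10AKO, above every WT value, and WT replicate 2 was far under the other WT libraries, without which the log2 change was 0.52 (limma adjusted p = 0.000154). Atp5g2 rose by 0.90 (95% interval 0.17 to 1.62, SE 0.318, limma adjusted p = 0.0292), but the call was lost without KLF10AKO replicate 1, 2 or 3 in turn (limma adjusted p = 0.0552, 0.0570 and 0.0583), with no minimum level (limma adjusted p = 0.0583) and with KLF10AKO replicate 4 alone, where the log2 change was 0.86 (limma adjusted p = 0.341). Atp5g1 (ENSMUSG00000006057, mm10 chromosome 11, 96068852 to 96075670, minus strand) was low, at 5.19, 5.61, 7.0 and 5.71 FPKM in the WT libraries, replicates 1 to 4, and 10.6, 10.1, 13.4 and 6.59 in the KLF10AKO libraries. It rose by 0.71 (95% interval 0.28 to 1.14, SE 0.188, limma adjusted p = 0.00744), but KLF10AKO replicate 4 lay inside the WT range, and with that library alone the log2 change was 0.16 (limma adjusted p = 0.455). The 3 genes together stood at 255 ± 25.3 FPKM over the WT libraries and 197 ± 17.0 over the KLF10AKO libraries (SD, n = 4 each). Atp5g3 made up 77.7% ± 8.56 of that sum in WT and 51.2% ± 1.70 in KLF10AKO, and Atp5g2 19.9% ± 8.36 and 43.7% ± 2.69. No KLF10AKO library reached the WT range of either share, and the shift of the shares was as large in KLF10AKO replicate 4 (49.0% Atp5g3) as in the others.

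Abundant subunits fell more than scarce ones, as abundant genes did in general. Across the 80 the level (log2 of the mean FPKM over the 8 libraries) and the log2 change had a Spearman rho of -0.46 (n = 80), and of -0.44 without Cox6a2. The genes share the same libraries, so this is a description. All 7 subunits with a mean of at least 200 FPKM fell, by a median of 0.94, and 101 of 202 genes of that level did, with a median of -0.54. Between 100 and 200 FPKM 17 of 19 subunits fell (median -0.69) and 144 of 252 genes (median -0.51), and between 50 and 100 FPKM 20 of 26 subunits (median -0.60) and 307 of 531 genes (median -0.42). Between 20 and 50 FPKM 14 of 20 fell (median -0.50), against 785 of 1671 genes (median -0.14). Under 20 FPKM 3 of 8 fell (median -0.22), against 4251 of 13356 genes (median 0.09). In each of the 5 classes the median of the subunits was below that of all genes. Among protein-coding genes alone, as the subunits all are, the medians were -0.64, -0.62, -0.48, -0.15 and 0.05 from the highest class to the lowest, so the gap narrowed most between 100 and 200 FPKM, where it was -0.69 against -0.62. In the same order, 53.8%, 60.6%, 60.6%, 47.9% and 35.6% of the protein-coding genes fell. Scaled to adipocyte markers, all 80 subunits were higher at every level. The order of the subunits by level was much the same in both groups, with a Spearman rho of 0.92 between the WT and KLF10AKO means (n = 80).

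**Figure D4:**
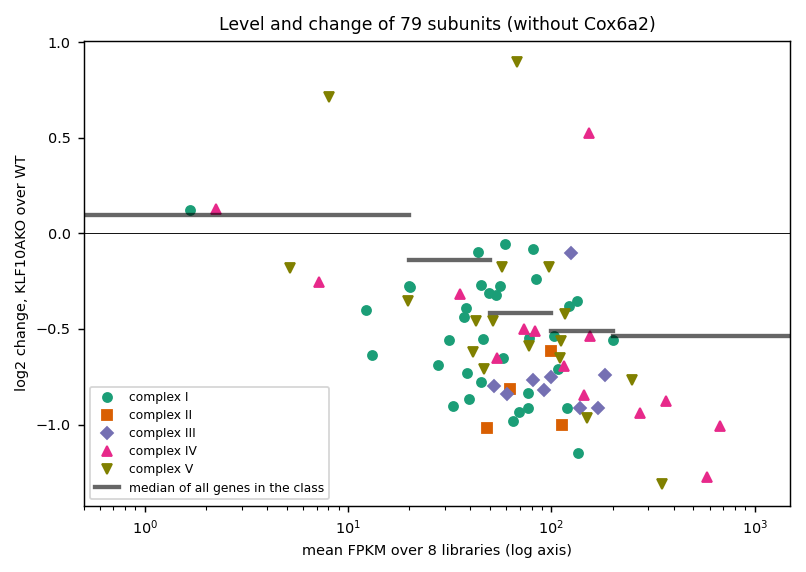
Log2 change (KLF10AKO over WT, authors' scaling) of 79 subunits against their mean FPKM over the 8 libraries (log axis), with symbols for the complexes and grey bars for the median of all genes tested in each of 5 level classes. All 7 subunits at 200 FPKM or more lie below 0, and Cox7a2l, Atp5g2 and Atp5g1 are the called genes above 0; scaled to adipocyte markers, all 80 were higher.

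Assembly factors, which build the complexes without being part of them, had a smaller median change than the subunits. Of 46 tested (of 48 listed) 19 fell, where 34.9% of all genes did, 7 rose, where 39.4% did, and 20 did not pass, with a median log2 change of -0.14. Cox19, a copper-handling factor of complex IV, had the largest fall: it stood at 29.6, 32.9, 28.1 and 32.0 in WT and 9.49, 9.37, 11.6 and 9.53 in KLF10AKO FPKM and fell by 1.57 (limma adjusted p = 4.24e-07). Atpaf2 and Tmem70, both factors of ATP synthase, fell by 1.00 (limma adjusted p = 6.76e-06) and 0.79 (limma adjusted p = 7.67e-06). Among those that rose, Cox17, the copper chaperone of complex IV, stood at 1.14, 1.17, 1.28 and 0.955 in WT and 2.67, 2.19, 2.18 and 2.78 in KLF10AKO and rose by 0.85 (limma adjusted p = 8.21e-05), Coa4 rose by 0.70 (limma adjusted p = 0.000677) and Ndufaf4, a complex I factor, by 0.44 (limma adjusted p = 0.000967). The calls of Coa4 and Ndufaf4 were lost with KLF10AKO replicate 4 alone (0.0503 and 0.0945). The count that rose was 11 with TPM, 13 with voom and 3 with quantile normalization. Scaled to adipocyte markers, 45 of the 46 were higher and none was lower. Assembly factors were also scarcer than subunits, at a median WT level of 7.55 FPKM against 85.2.

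Of the 8 electron carriers and subunits outside the rule, 6 fell, where 34.9% of all genes did, and 2, Cox7a1 and Cox8b, did not pass. The electron transfer flavoprotein and its dehydrogenase, which bring electrons of fatty acid oxidation to ubiquinone, fell by more than 1 on the log2 scale. Etfa stood at 286, 326, 289.5 and 277 in WT and 102, 98.7, 113 and 83.5 in KLF10AKO FPKM and fell by 1.57 (limma adjusted p = 1.27e-06), Etfb fell by 1.13 (limma adjusted p = 1.18e-05) and Etfdh by 1.19 (limma adjusted p = 5.34e-06). Cycs, cytochrome c, and Ndufab1, the acyl carrier protein of complex I, were among the 6, with Ndufa4l2, which is related to Ndufa4. Scaled to adipocyte markers, 5 of the 8 were higher, where 86.9% of all genes were, and none was lower.

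The 13 subunits encoded by mitochondrial DNA, which join the nuclear subunits in the same complexes, fell in 7 cases, where 34.9% of all genes did, and rose in none, with a median log2 change of -0.73, while 12 of 13 were higher when scaled to adipocyte markers. This count rested on WT replicate 2, whose mean over the 13 was -0.79 relative to the WT mean, against 0.12 to 0.39 in the other WT libraries and -0.49 to -0.82 in KLF10AKO. Without WT replicate 2, all 13 were lower, where 34.1% of all genes were, and with KLF10AKO replicate 4 alone 2 were, where 29.7% were. Lowest in p were mt-Nd4l, mt-Nd6 and mt-Nd3, which fell by 1.15 (limma adjusted p = 0.000496), 0.73 (limma adjusted p = 0.00109) and 0.99 (limma adjusted p = 0.00289). The call of mt-Nd6 was lost with no minimum level, with quantile normalization (log2 change -0.011) and with KLF10AKO replicate 4 alone. Poly(A) selection bears on the levels of these transcripts, so they were not set beside the nuclear subunits.

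Regulators of mitochondrial gene expression moved in both directions. Of 13 tested 7 rose, where 39.4% of all genes did, and 2 fell, where 34.9% did (6 and 5 with quantile normalization), with a median log2 change of 0.47, and 12 of the 13 were higher when scaled to adipocyte markers. Pprc1, a coactivator of the PGC-1 family, stood at 3.18, 3.29, 2.82 and 3.23 in WT and 6.56, 6.67, 6.63 and 6.86 in KLF10AKO FPKM and rose by 0.99 (limma adjusted p = 1.09e-06). Gabpb1, a partner of the ETS factor GABPA, rose by 0.76 (limma adjusted p = 4.46e-06), and Tfam, which packages mitochondrial DNA, by 0.85 (limma adjusted p = 1.49e-05). Nrf1, Polrmt, Esrra and Ppargc1b were the others that rose. Nrip1, a corepressor of oxidative genes in fat, stood at 9.22, 7.80, 9.38 and 7.68 in WT and 3.2, 3.01, 3.15 and 2.93 in KLF10AKO and fell by 1.33 (limma adjusted p = 8.69e-07). Tfb2m fell by 0.18 (limma adjusted p = 0.0225) on the authors' scaling, but its log2 change was 0.015 with TPM, 0.030 with voom and 1.36 when scaled to adipocyte markers, and its call was lost without KLF10AKO replicate 2 or 4 or WT replicate 1 or 3 (limma adjusted p = 0.0509 to 0.0638). Ppargc1a, the best known coactivator of mitochondrial genes, was low in both groups, at 1.06, 0.766, 1.10 and 1.21 in WT and 0.960, 0.823, 0.770 and 0.688 in KLF10AKO, and did not pass (log2 change -0.22, limma adjusted p = 0.148).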

How the data were processed

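Per the labels, poly(A) RNA was selected, fragmented and primed with random hexamers. The genome was mm10 and the tools were edgeR 3.22.5, HISAT2 2.0.5 and featureCounts 1.5.0-p3, per the submitters' processing notes. They state neither an annotation release nor a strand setting. The authors deposited FPKM per gene for each library, with gene length beside them. FPKM times length gave whole reads (within 0.01 of a read) for 100.0% of values, 15537863 to 17499132 reads per library, and these served voom alone. Differences between replicates exceeded counting noise in every pair of libraries within a group, so each counted as 1 sample.

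WT and KLF10AKO were compared in R 4.3.3 with limma 3.58.1 (lmFit, eBayes with trend, no covariate) on log2(FPKM + 0.5) of genes with a mean of at least 0.5 FPKM. Two-sided p-values were adjusted (Benjamini-Hochberg) over 16012 genes, with a threshold of 0.05. Fold changes on this scale understate the change of low genes. The procedure was tested on simulated data in which few genes changed, as many up as down, so that test does not bear on the choice of scaling. Replicate numbers were not treated as a pairing, except in the replicate block among the alternatives. For alternatives with 1 library in a group, that library was assumed to vary like the others.

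The members and all lists were chosen with earlier results of these data known, and support nothing on their own. Named genes were, per complex, the highest in WT, the largest fall and the largest rise or smallest fall, with all isoform genes, complex II, core complex I and F1 subunits, all that rose, and up to 4 per complex that did not pass. A gene this rule names is not reported here. Of other lists, up to 3 per direction with the lowest p were named. Further genes (Ndufa12, Ndufs6, Ndufa5, Ndufb10, Ndufb9, Ndufa4, Cyc1, Atp5h, Atp5o, Cycs, Ndufab1, Ndufa4l2, Cox7a1, Cox8b, Ppargc1a and the remaining regulators) were chosen after their values were seen. Alternatives were pseudocounts of 1 and 0.1, no minimum level and a minimum of 2 FPKM, TPM, quantile normalization, scaling to 12 adipocyte markers, voom, a replicate block, each library left out, and KLF10AKO replicate 4 alone. Promoter windows came from RefSeq, build GRCm38.p6.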

Additional observations from a re-analysis of the deposited data

Results flagged for a closer look

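In 160 groups of 4 libraries (80 subunits in WT and in KLF10AKO), 2 held a library whose gap to the nearest other library took up more of the group's range than Dixon's critical share for 4 samples, which chance gives in about 1 in 20 groups. WT replicate 3 was the highest of its group in both. Ndufb8, an accessory subunit of complex I, stood there at 47.9 FPKM, against 41.1 to 41.5 in the other WT libraries. Ndufs6, another accessory subunit of complex I, stood there at 64.0 FPKM, against 50.7 to 52.9.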

How the results depend on the processing

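Scaling to the adipocyte markers moved every count: 202 genes were lower and 13907 higher, 0 subunits were lower and 80 higher (35, 4, 9, 15 and 17 in complexes I to V, with 0 lower in each), and 0 assembly factors, mitochondrially encoded subunits and regulators were lower while 45, 12 and 12 were higher. Under that scaling these genes turned to a positive log2 change: Cox19 0.0049, Etfa 0.053, Nrip1 0.15, Atp5b 0.31, Cox6a1 0.35, Etfdh 0.36, mt-Nd4l 0.43, Etfb 0.47, Ndufb3 0.47, Sdhc 0.59, Atpaf2 0.60, Sdha 0.61, Cox8a 0.62, mt-Nd3 0.62, Ndufv1 0.63, Atp5g3 0.65, Cox6b1 0.68, Ndufb8 0.70, Uqcrfs1 0.70, Cox4i1 0.75, Ndufa4 0.77, Sdhb 0.80, Tmem70 0.80, Atp5a1 0.86, Uqcr10 0.88, mt-Nd6 0.90, Cox7a2 0.92, Ndufs1 0.93, Atp5c1 0.97, Sdhd 1.00, Atp5d 1.06, Ndufs3 1.06, Ndufa2 1.06, Cox7b 1.12, Cox4i2 1.26, Cox5a 1.28, Ndufs8 1.29, Ndufs6 1.30, Atp5s 1.30, Ndufa12 1.30, Ndufv2 1.34, Tfb2m 1.36, Atp5mpl 1.43, Atp5e 1.44, Ndufa6 1.51, Uqcrh 1.51, Ndufa3 1.53 and Ndufs7 1.56. The scaling itself raises every KLF10AKO library, and the median log2 change of all genes became 1.44. With TPM, which moved that median to 0.25, 14 complex I subunits were lower and 1 higher, 11 assembly factors higher, 4 mitochondrially encoded subunits lower and 1 regulator lower, and Tfb2m turned to 0.015. With quantile normalization (median -0.16), 3 assembly factors were higher, 3 mitochondrially encoded subunits lower and 5 regulators lower. With voom (median 0.27), 1 complex I and 1 complex IV subunit were higher, 13 assembly factors higher and 1 regulator lower, and Tfb2m turned to 0.030. With no minimum level, 1 complex V subunit was higher and 3 mitochondrially encoded subunits lower. With KLF10AKO replicate 4 alone, 1 subunit was higher (1 in complex IV, 0 in complex V), 2 mitochondrially encoded subunits were lower and Cox7a1 turned to -1.74. Leaving out each library gave 1 to 2 higher complex V subunits, 5 to 13 lower mitochondrially encoded subunits (13 without WT replicate 2) and 1 to 3 lower regulators. The cause of these shifts between calls was not tested.

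Counts of lower subunits in complexes II to V and over all 80 stayed within 1.5 times the reported counts in every other setting, 43 to 66 over the 80 under TPM, quantile normalization, voom and the libraries left out in turn. Whether replicate numbers pair the libraries is not stated. Deviations of same-numbered libraries correlated by 0.0030 to 0.031, and those of other pairs by -0.018 to 0.011. Correlations over all genes this small do not settle whether same-numbered libraries share a batch. With the replicate block 66 subunits were lower and 4 higher, 30, 4, 8, 12 and 12 lower in complexes I to V, and the 5 subunits that gained a call were Cox4i2, Cox5a, Ndufa5, Ndufs6 and Ndufv2. Depth limits low genes most, and with 4 libraries a group the 15 subunits that did not pass cannot be called equal.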
